A study of Brassica napus with 22 samples.

Results

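Kinesin genes were followed across the young seed of oilseed rape (Brassica napus). They were taken from the deposited table as the genes whose description contains "kinesin" or "microtubule motor" and whose level reached 1 FPKM or more in at least 1 of 7 seed compartments. FPKM are sequenced fragments per kilobase of transcript and per unit of mapped fragments. Of 101040 genes in the table, 131 carried such a description and 104 of these reached the level, 48 in the A and 56 in the C subgenome. The members were thus chosen by their measured levels. At the edge, 7 members had 1 FPKM as their highest compartment value, and the 27 annotated genes left out were listed at 0 in all 7 compartments and in the whole seed.

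Kinesins are motor proteins that hydrolyse ATP to move along microtubules or to shorten them. In plant cells they build the spindle that separates chromosomes, they organise the phragmoplast, the microtubule array that lays down the new cell wall between daughter cells, and they move organelles and wall material in cells that do not divide. Land plants have many of them, above all in the kinesin-7, kinesin-12 and kinesin-14 families. At the globular stage the embryo is a small ball of dividing cells, the endosperm begins as a body of many nuclei without walls, and the seed coat is maternal tissue that grows around both.

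Plants of cultivar Topas were grown under long days and their seeds taken at the globular stage. The compartment groups were filial, formed by fertilisation, or maternal. Filial groups were the embryo proper with 2 libraries and 3 endosperm regions, micropylar with 4, peripheral with 2 and chalazal with 3. Maternal groups were the chalazal proliferating tissue with 3, the inner seed coat with 3 and the outer seed coat with 2, and whole seeds, which hold both filial and maternal tissue, had 3. The deposited table combines each group into 1 column. Replicate spread, intervals and tests could therefore not be computed, and read depth is unknown. Higher and lower are used below where the difference of mean log2(FPKM + 1) between the sides was at least 1, which is 2-fold, and the higher side had a mean of at least 5 FPKM. This rule of size has no error rate, and 99 of the 104 genes entered it, those with 1 FPKM or more in at least 2 of the 8 columns.

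Marker genes mostly followed the compartment labels, with exceptions. The highest LEC1 copy, for a regulator of embryo identity, had 164 FPKM in the embryo proper against 0 to 2 in the other compartments. The highest AGL35 copy, for a MADS-box factor of the chalazal endosperm, had 1107 FPKM there and at most 14 elsewhere in the compartments. TT16, a seed coat regulator, reached 618 FPKM in the chalazal proliferating tissue, 180 in inner and 5 in outer seed coat, and GL2, a regulator of the outer epidermis, had 35 FPKM in the outer seed coat. BAN, a seed coat pigment enzyme, had 24 FPKM in the chalazal proliferating tissue in its highest copy but 1 in inner and 0 in outer seed coat, and of 14 seed coat marker copies 4 were higher and 5 lower in the outer seed coat. The endosperm regulator AGL62 went against the label in the micropylar endosperm, where its highest copy was listed at 0. The highest ZHOUPI copy had 44 FPKM there and 0 in the other compartments. All copies of the 4 endosperm loci listed summed to 807 FPKM in micropylar, 1737 in peripheral and 1462 in chalazal endosperm. Of the 26 copies compared, 11 were higher and 12 lower in the micropylar endosperm, against 19.4% and 18.2% of all genes. Summed over 4 loci, embryo marker copies had 502 FPKM in the embryo proper, 54 in micropylar endosperm and 0 to 5 in the remaining compartments; the part of embryo RNA in the micropylar column was not tested.

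Kinesin transcripts were most abundant in the embryo proper. Summed over the 104 genes they made up 0.0974% of all FPKM in the embryo proper, 0.0470% in outer seed coat, 0.0324% in inner seed coat, 0.0258% in peripheral endosperm, 0.0198% in micropylar endosperm, 0.0163% in chalazal proliferating tissue and 0.0139% in chalazal endosperm. Leaving ribosomal RNA and organelle genes out of the total, the embryo proper had 0.116%, the outer seed coat 0.0506% and the micropylar endosperm 0.0314%. The median member was at 6 FPKM in the embryo proper, at 2 in outer seed coat, at 1 in peripheral endosperm and inner seed coat, at 0.5 in micropylar endosperm and at 0 in both chalazal compartments. A total of 79 members reached 5 FPKM in a compartment and 17 reached 20, and the highest value was 50 FPKM. Each compartment holds many cells, and fewer cells of a type cannot be told apart from less RNA per cell.

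**Figure D1:**
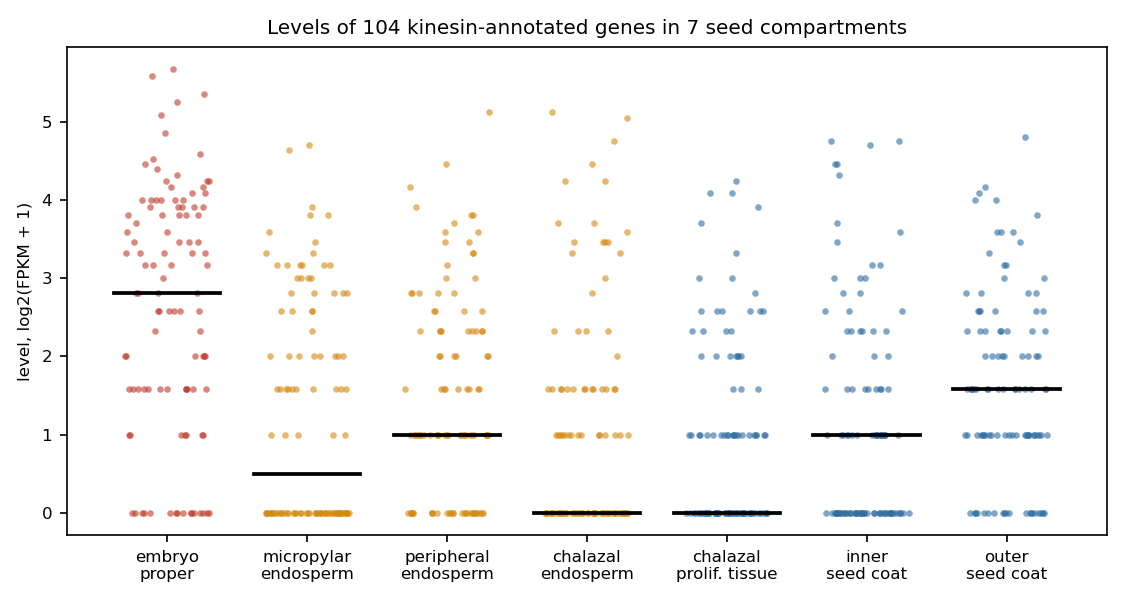
Level of each of 104 kinesin-annotated genes, as log2(FPKM + 1), in 7 seed compartments; each point is 1 gene and the black line the median over genes. Embryo proper is red, endosperm regions are orange and maternal compartments are blue. The median lies at 6 FPKM in the embryo proper and at 0 in both chalazal compartments.

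Set against the other 6 compartments, 54 of the 99 kinesin genes compared were at least 2-fold higher in the embryo proper, 5 lower and 40 neither. Over all 54278 genes compared, 20.1% were higher and 17.2% lower. The median kinesin difference was 1.58 log2 against -0.33 over all genes. The embryo proper was the highest compartment for 55 of the 99, against 18.8% of all genes, and 36 members exceeded every other compartment there by 2-fold or more, 45.6% of the 79 members at 5 FPKM or more in a compartment against 11.1% of all such genes. Kinesin genes are long, with a median of 2938.5 bases against 1253 over the genes compared. Among genes of 2000 bases or more, 51 of 88 members were higher in the embryo proper, against 24.9% of 10562 such genes.

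The embryo count of higher members stayed within 1.5 times under other scalings. With columns brought to a common median it was 46, with 6 lower and 12.8% of all genes higher. With columns brought to a common sum without ribosomal RNA and organelle genes it was 57, with 3 lower and 26.9% of all genes higher. These scalings shift the median gene itself, by -0.13 and 0.17 log2 for the embryo proper, and over the 9 comparisons by -0.29 to 0.35 with the common median and by -0.46 to 0.54 with the common sum. With a filter of 5 FPKM in at least 2 columns, which leaves out genes high in 1 compartment only, 28 of 47 members were higher and 4 lower, against 25.4% and 26.5% of all 32659 genes left.

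**Figure D2:**
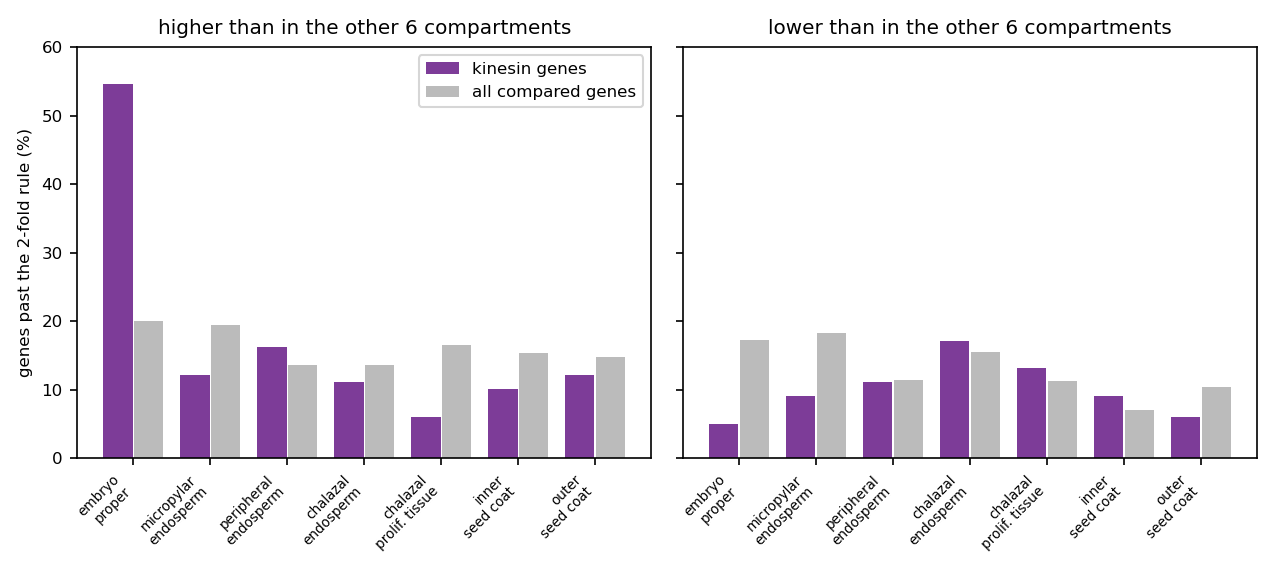
Share of genes past the 2-fold rule, in percent, for each compartment against the other 6: kinesin genes in purple (99 genes) and all 54278 compared genes in grey, higher on the left and lower on the right. The bars for the embryo proper stand apart on the left, at 54.5% of kinesin genes against 20.1% of all genes.

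Kinesins of cytokinesis were higher in the embryo proper in most copies. HINKEL (HIK), a kinesin-7 that Arabidopsis needs to expand the phragmoplast and finish the cell plate, had 4 expressed copies. BnaA06g12500D had 14 FPKM in the embryo proper against 0 to 2 in the other 6 compartments, and BnaA09g44600D had 14 FPKM against 0 to 3. BnaC05g14090D had 13 FPKM in the embryo proper against 0 to 1, and BnaC08g37310D had 9 FPKM against 0 to 4. Each copy was at least 2-fold above every other compartment, and the differences ran between 2.38 and 3.48 log2.

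The kinesin-12 family, which marks the future division plane and orders the phragmoplast midzone, showed the same side: 9 of 11 members were higher in the embryo proper, against 20.1% of all genes, and 11 of 11 had their highest value there, against 18.8%. Of the 11, BnaC07g07860D had 1 FPKM in the embryo proper and 0 in the other 6 compartments. It was thus a member through the embryo proper alone, and its peak there was fixed. BnaA05g22780D had 2 FPKM in the embryo proper against 0 to 1. PAKRP1L, a phragmoplast kinesin, reached 19 FPKM in the embryo proper in BnaCnng71160D against 0 to 1 in the other 6 compartments, and 11 FPKM in BnaA01g23610D against 0 to 3. Further PAKRP1L copies had 10 FPKM in the embryo proper in BnaCnng29910D and 6 in BnaA07g36420D. POK1 and POK2, which guide the phragmoplast to the division plane, were low: BnaC05g36060D (POK1) had 9 FPKM in the embryo proper against 0 to 3, and BnaA05g21080D (POK2) had 10 FPKM against 0 to 2. POK2 also had BnaC05g33920D, with 8 FPKM in the embryo proper against 0 to 4. A pair of AT3G20150 copies, BnaA03g35600D and BnaC03g41430D, had 14 and 15 FPKM in embryo proper and at most 4 elsewhere in the compartments. The family summed to 105 FPKM in the embryo proper, 27 in outer seed coat and at most 9 in any of the other compartments.

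TETRASPORE (TES), the HINKEL relative known for cytokinesis after male meiosis, had another pattern. BnaA06g19570D had 9 FPKM in the embryo proper, 5 in chalazal proliferating tissue, 4 in inner and 3 in outer seed coat, 2 in peripheral endosperm and 0 in both other endosperm regions. BnaCnng11920D had 10 FPKM in the embryo proper, 7 in chalazal proliferating tissue, 5 in inner and 8 in outer seed coat, and 0 in all 3 endosperm regions. Both copies were past the 2-fold rule in the embryo proper and in the chalazal proliferating tissue, unlike the HIK copies, which were below 5 FPKM in every maternal compartment.

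The highest embryo levels were those of a spindle kinesin. ATK5, a minus-end-directed kinesin-14 that focuses spindle poles, was at 50 FPKM in the embryo proper in BnaA09g19860D (chromosome A09, 12813116 to 12817490, counted from 1; the genome build is not given in the sources used here). The same copy had 17 FPKM in the peripheral endosperm, 15 in outer seed coat, 3 in micropylar endosperm, 1 in inner seed coat and 0 in both chalazal compartments. BnaC09g21860D (C09, 19068975 to 19073199) had 47 FPKM in the embryo proper, 7 in peripheral endosperm, 5 in outer seed coat, 2 in micropylar endosperm and 0 in the remaining 3. The ATK5 copy BnaA06g21560D ran the other way, with 4 FPKM in the embryo proper, 16 in chalazal proliferating tissue and 12 in chalazal endosperm. The first and second of these copies thus peaked in the embryo proper, and BnaA06g21560D did not.

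Kinesin-5, whose tetramers push spindle poles apart, was represented among the members by KIN5B. BnaC04g45150D had 14 FPKM in the embryo proper, 4 in outer seed coat and at most 1 elsewhere in the compartments, and BnaA04g21400D had 5 FPKM in the embryo proper and at most 1 elsewhere. Both kinesin-8 genes, of a family that limits microtubule length in animals and yeast, had almost no signal outside the embryo: BnaC05g14240D had 23 FPKM in the embryo proper, 2 in outer seed coat and 0 in the other 5 compartments, and BnaA06g12680D had 8, 1 and 0. The kinesin-14 loci AT1G72250 and AT2G22610 had 6 member copies, all higher in the embryo proper. Among them BnaC02g21300D (AT1G72250) had 13 FPKM in the embryo proper against 0 to 1 in the other 6 compartments, and BnaC08g34890D (AT2G22610) had 18 FPKM in the embryo proper, 9 in peripheral and 7 in micropylar endosperm.

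The largest embryo difference among the members, 5.08 log2, belonged to a kinesin-7 gene of no fixed name, BnaC04g33580D (AT2G21300; C04, 35150867 to 35155874). It had 37 FPKM in the embryo proper, 1 in inner seed coat and 0 in the other 5 compartments. Other copies of its locus were broader. BnaA09g43240D had 33 FPKM in the embryo proper, 16 in chalazal proliferating tissue, 13 in micropylar endosperm, 11 in outer and 7 in inner seed coat, and 2 in both other endosperm regions. BnaC08g35850D tied at 18 FPKM in the embryo proper and in the chalazal proliferating tissue. A kinesin-10 gene, BnaCnng40390D (AT5G02370), had 40 FPKM in the embryo proper against 2 to 10 in the other 6 compartments, a difference of 2.81 log2.

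Other kinesin-7, kinesin-6, kinesin-14 and armadillo-repeat genes also had their highest values in the embryo proper. MKRP2, a kinesin-7 related to a mitochondrial kinesin, had 17 FPKM in the embryo proper in BnaA06g37160D, 7 in inner seed coat and 6 in micropylar endosperm, and 9 FPKM in BnaC03g60320D against 0 to 1 in the other 6 compartments. BnaC07g47400D, another MKRP2 copy, had 13 FPKM in the embryo proper against 1 to 8. The pair of kinesin-6 genes, BnaAnng14730D and BnaC07g14850D (AT1G20060), had 15 and 10 FPKM in the embryo proper against 2 to 5 in the other compartments. ZWICHEL (ZWI), a calmodulin-binding kinesin-14 known from leaf hairs, was low: BnaA02g34890D had 9 FPKM in the embryo proper against 3 to 7, a difference of 0.99 that misses the 2-fold rule, and BnaC09g08380D had 5 against 0 to 3. The armadillo-repeat kinesin ARK2 (BnaCnng08990D) had 13 FPKM in the embryo proper against 5 to 10 and was past the rule in no comparison.

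A member counted as lower in the embryo proper only with a mean of at least 5 FPKM over the remaining compartments, all endosperm or maternal. High levels there were thus a condition of the call, and 5 members were called lower. They were AT4G38950 copies BnaA06g37260D and BnaA01g05240D, the AT3G51150 copy BnaA09g31730D, the KIN13B copy BnaC01g44240D and a short KAC1-like model, BnaC06g25970D. Among these BnaA01g05240D had 1 FPKM in the embryo proper and 13 in outer seed coat.

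**Figure D3:**
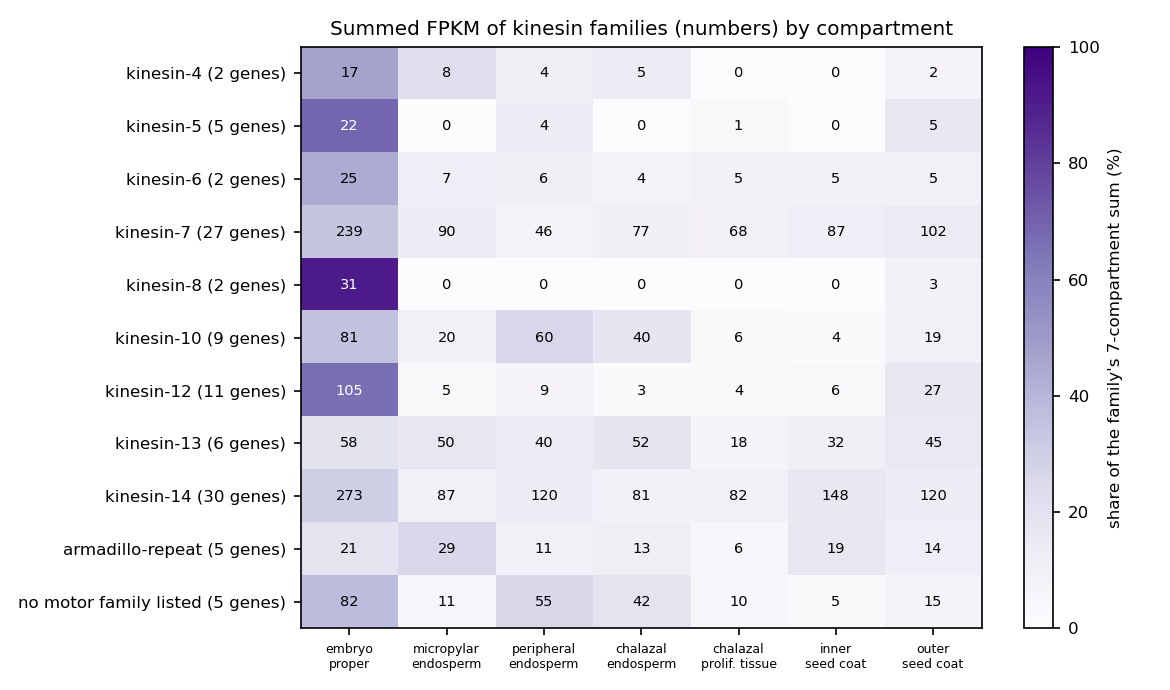
Summed FPKM of the members of each kinesin family (numbers in the cells) in 7 compartments, with the shade giving the share of the family's sum over the 7, in percent. Kinesin-8, kinesin-12 and kinesin-5 are concentrated in the embryo proper, with sums of 31, 105 and 22 FPKM there. In contrast, kinesin-13 and the armadillo-repeat kinesins are spread over compartments.

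Among the other 6 compartments, the kinesins higher in the embryo proper had their highest value most often in the outer seed coat or the peripheral endosperm. Of the 54, it lay in the outer seed coat for 17 (31.5%, against 17.6% of the 10891 genes higher in the embryo proper), in the peripheral endosperm for 14 (25.9%, against 16.5%) and in the micropylar endosperm for 7 (against 21.4%), with 9 in one of the others and ties for 7. For 6 of the 54 this value was above that of the embryo proper, and for 2 it was equal. In the outer seed coat 1 of the 54 was listed at 0 (1.85%, against 14.6% of those genes), and in the peripheral endosperm 15 were (27.8%, against 25.8%). The inner seed coat and the chalazal proliferating tissue had 26 each at 0 (48.1%, against 14.2% and 22.1%), the micropylar endosperm had 28 (51.9%, against 42.3%) and the chalazal endosperm 32 (59.3%, against 37.6%). Mitotic genes also had their highest levels in the embryo proper, peripheral endosperm and outer seed coat. The mean log2(FPKM + 1) over 67 copies of mitotic cyclins, B-type CDKs, Aurora kinases and related genes was 3.31 in the embryo proper, 2.36 in peripheral endosperm, 1.92 in outer seed coat, 1.20 in micropylar endosperm, 1.15 in chalazal endosperm, 0.97 in inner seed coat and 0.89 in chalazal proliferating tissue.

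Across the 7 compartments, the Pearson correlation of a member's log2(FPKM + 1) with that mean was 0.8 or more for 29 of the 79 members at 5 FPKM or more (36.7%, against 5.16% of all such genes). It was below 0 for 16 of them (20.3%, against 52.2%). The 7 points share columns, depth and scaling, and the values are a description. Among the closest were AT1G72250 copy BnaA07g29980D at 0.99, POK2 copy BnaA05g21080D at 0.98, HIK copy BnaA09g44600D and ATK5 copy BnaC09g21860D at 0.97. KAC1, KP1, ATK4 and AT3G51150 had copies below 0. So had loci tied to microtubules in division, with the ATK5 copy BnaA06g21560D at -0.45 and the KIN13B copy BnaC01g44240D at -0.37.

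Partners of these kinesins in division had a similar side. All genes compared gave 20.1% higher and 17.2% lower in the embryo proper, beside which the following lists stand. Of 39 copies of phragmoplast and cytokinesis genes compared, 26 were higher in the embryo proper and 2 lower, at a median difference of 1.42 log2. The cytokinesis syntaxin KNOLLE (BnaA06g04950D) had 72 FPKM in the embryo proper and 13 in outer seed coat, and the kinase TIO (BnaAnng33520D), which binds a kinesin-12 in Arabidopsis, had 80 and 23. The ANP1 copy BnaC05g06530D, for a kinase activated by HINKEL-type kinesins, had 23 FPKM in the embryo proper against 3 to 7. MPK4, further down that cascade, went the other way, with 11 FPKM in the embryo proper against 23 to 44 in BnaC03g31910D.

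Microtubule regulators gave 15 of 29 copies higher in the embryo proper and 0 lower, with the spindle factor TPX2 (BnaA09g50840D) at 40 FPKM there against 0 to 6. Tubulins, the tracks themselves, were less one-sided at 22 of 55 higher and 6 lower; their median was 0.23. TUB6 (BnaC09g44450D) was highest in the inner seed coat, at 383 FPKM, with 61 in the embryo proper. Among the 67 mitotic copies 42 were higher and 1 lower, and the median was 1.99. In the peripheral endosperm 22 of these mitotic copies were higher and 2 lower, and in the outer seed coat 13 were higher and 3 lower. Of the cytokinesis copies, 3 were higher and 4 lower in the peripheral endosperm, and 13 were higher and 1 lower in the outer seed coat. The shares over all genes were 13.7% and 11.4% in the peripheral endosperm and 14.8% and 10.4% in the outer seed coat, so the cytokinesis counts in the peripheral endosperm were near the background.

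Kinesins of the chalazal endosperm formed a small set. Against the other 6 compartments 11 of 99 members were higher there and 17 lower, against 13.6% and 15.5% of all genes, so the higher share was near the background. The common sum gave 3 and 24, where 5.32% and 29.6% of all genes were higher and lower. The chalazal endosperm was highest for 9 of the 99 members (9.09%), against 10.997% of all genes compared, which is also near the background. Of the 79 at 5 FPKM or more, 5 exceeded each other compartment by at least 2-fold, against 5.91% of all such genes.

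AT3G51150, a kinesin-7 gene, supplied the leading pair. BnaC08g22570D (C08, 25215898 to 25220432) had 34 FPKM in the chalazal endosperm, 6 in micropylar and 4 in peripheral endosperm, 3 in inner seed coat and 2 in the remaining compartments. BnaA09g31730D (A09, 23653819 to 23658227) had 26 FPKM in the chalazal endosperm and 0 to 1 in the other 6, the largest difference of any member there at 4.09 log2. Both were 2-fold above every other compartment, while the other 3 member copies of the locus were at 0 to 1 FPKM in the chalazal endosperm.

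ATK4, a kinesin-14, had its copies in the endosperm. BnaA06g28420D had 18 FPKM in the chalazal endosperm, 4 in peripheral and 2 in micropylar endosperm, 3 in chalazal proliferating tissue and 0 in embryo proper and both seed coats. BnaC07g28380D had 12 FPKM in the chalazal endosperm, 6 in peripheral endosperm and 1 to 3 in the other 5. BnaCnng24990D had 5 FPKM in the peripheral endosperm, 2 in chalazal endosperm and 0 in the other 5. AT5G23910, a kinesin-10, was also found in endosperm: BnaA06g26480D had 9 FPKM in the chalazal and 4 in peripheral endosperm, 1 in outer seed coat and 0 in the other 4. BnaC09g04660D had 13 FPKM in the embryo proper, 14 in peripheral and 9 in chalazal endosperm.

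Of the 54 members higher in the embryo proper, the 32 listed at 0 in the chalazal endosperm included division kinesins. ATK5 copies BnaA09g19860D and BnaC09g21860D were at 0, as were all POK1 and PAKRP1L copies, both kinesin-8 genes and 3 of 4 HIK copies, the remaining one being at 1 FPKM. Also among the 54, the POK2 copy BnaC05g33920D had 2 FPKM in the chalazal endosperm. The ATK5 copy BnaA06g21560D, which was not among the 54, had 12 FPKM there. KIN13B, of a family that shortens microtubules, was present there: BnaA01g28250D had 21 FPKM in the chalazal endosperm, 24 in micropylar endosperm, 20 in embryo proper and 5 to 15 in the other 4 compartments. BnaC01g44240D had 18 FPKM in the chalazal endosperm and 5 in embryo proper, where it was past the 2-fold rule as lower.

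**Figure D4:**
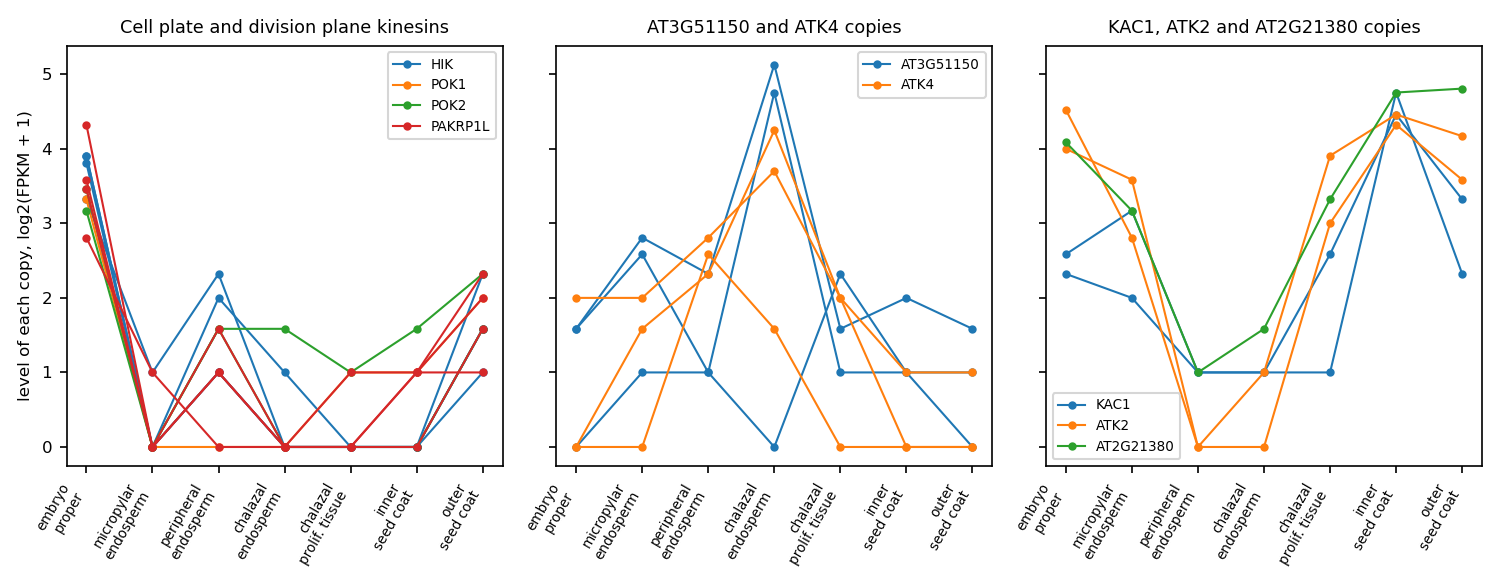
Level of single copies, as log2(FPKM + 1), across 7 compartments; each line is 1 copy with 5 FPKM or more in a compartment and a length of 1000 bases or more, coloured by Arabidopsis locus. HIK, POK1, POK2 and PAKRP1L (left) peak in the embryo proper at up to 19 FPKM, AT3G51150 and ATK4 (middle) reach 34 and 18 FPKM in chalazal endosperm, and KAC1, ATK2 and AT2G21380 (right) reach 19 to 27 FPKM in a seed coat layer.

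In the peripheral endosperm 16 members were higher and 11 lower than in the other 6 compartments, against 13.7% and 11.4% of all genes, and the split was 24 and 10 with a common median, where 21.0% and 9.22% of all genes were. The ATK4 copy BnaCnng24990D was the 1 member at 5 FPKM or more and 2-fold above each other compartment, against 4.48% of all such genes. The members with the highest level there were the AT5G33300 copy BnaC08g08140D at 34 FPKM, a KAC1-like model of 261 bases, BnaC06g25970D, at 21 and the ATK5 copy BnaA09g19860D at 17. ATK2, a kinesin-14, was missing here: both copies were listed at 0, with differences of -3.48 log2 for BnaC01g19340D and -3.08 for BnaA01g16240D.

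In the micropylar endosperm 12 members were higher and 9 lower, against 19.4% and 18.2% of all genes, and 3 and 13 with a common median, against 10.4% and 25.8%. Here 3 members were 2-fold above each other compartment, against 10.3% of all such genes. The AT4G38950 copy BnaA06g37260D, a kinesin-7 gene, led with 25 FPKM there, 12 in peripheral and 4 in chalazal endosperm, 1 in chalazal proliferating tissue and 0 in embryo proper and both seed coats. ARK3, an armadillo-repeat kinesin, had 13 FPKM in the micropylar endosperm in BnaA06g08140D against 0 to 5 in the other 6, and 8 FPKM there in BnaC05g09400D, which had 10 in the inner seed coat. KP1 (BnaAnng03370D), a kinesin-14 that binds mitochondria in Arabidopsis, had 10 FPKM in the micropylar endosperm and 0 to 3 in the other 6. This column held 36.9% of its FPKM in ribosomal RNA and organelle genes, against 4.16% to 16.0% in the other compartments. The part of that share in these values was not tested, and the common sum gave 11 higher and 11 lower, against 20.6% and 18.1% of all genes.

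Kinesins highest in maternal tissue included the chloroplast movement kinesin KAC1, a kinesin-14 that works through actin. BnaC03g04340D (C03, 2072055 to 2078804) had 26 FPKM in the inner seed coat and 1 to 4 in the other 6 compartments, the largest inner seed coat difference at 3.15 log2. BnaA03g02940D had 21 FPKM in the inner seed coat, 9 in outer seed coat, 8 in micropylar endosperm, 5 in embryo proper and in the chalazal proliferating tissue, and 1 in both other endosperm regions. KAC2 did not share this: BnaC03g48940D was highest in the chalazal endosperm at 11 FPKM, with 5 in inner seed coat, and its chalazal endosperm difference of 1.00 log2 was -0.061 with the common sum, and BnaA06g24330D was highest in the embryo proper at 6 FPKM.

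By number, 10 members were higher and 9 lower in the inner seed coat, against 15.4% and 6.99% of all genes, and 14 and 8 with a common median, against 23.8% and 5.20%. In the outer seed coat 12 were higher and 6 lower, against 14.8% and 10.4%, and 22 and 3 with a common sum, where 24.7% and 6.60% of all genes were. Members 2-fold above each other compartment numbered 2 in inner and 1 in outer seed coat, against 3.56% and 4.26% of all such genes, and 0 in the chalazal proliferating tissue, against 5.95%. The outer seed coat was highest for 4 members, against 9.52% of all genes. In the chalazal proliferating tissue 6 were higher and 13 lower, against 16.5% and 11.2%, and its split was 8 and 7 with a common median, against 23.3% and 8.46%, and 4 and 20 with a common sum, against 13.8% and 13.04%. That tissue was the highest compartment for 1 member, the ATK5 copy BnaA06g21560D, against 13.1% of all genes compared.

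Some kinesins were shared by seed coat and embryo and were at or near 0 in the peripheral and chalazal endosperm. ATK2 had 22 FPKM in the embryo proper, 21 in inner and 17 in outer seed coat, 14 in chalazal proliferating tissue, 6 in micropylar, 1 in chalazal and 0 in peripheral endosperm in BnaC01g19340D. BnaA01g16240D had 15 FPKM in the embryo proper, 19 and 11 in inner and outer seed coat, 11 in micropylar endosperm and 0 in both other endosperm regions. AT2G21380 (BnaC08g35790D), a kinesin-7 gene, had 16 FPKM in the embryo proper, 26 in inner and 27 in outer seed coat, and 1 to 9 in the other 4. ATK3, another kinesin-14, had a pair of copies highest in the outer seed coat, at 10 FPKM in BnaA10g28890D and 11 in BnaC09g53250D, while BnaA02g09510D had 8 FPKM in the embryo proper and in micropylar endosperm. In the peripheral and chalazal endosperm these 3 copies were at 0 to 1.

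Setting the 4 filial against the 3 maternal compartments, 19 members were higher and 10 lower, against 10.1% and 16.9% of all genes. The largest difference was that of BnaA06g37260D (AT4G38950) at 2.35 log2, and the lowest that of the ATK2 copy BnaC01g19340D at -2.10. By family, kinesin-10 gave 5 higher and 0 lower of 8 compared, kinesin-14 gave 6 and 6 of 30, and kinesin-7 gave 3 and 4 of 26. Without the embryo proper, a setting chosen after seeing the data, 10 were higher and 10 lower, against 11.2% and 17.3% of all genes. The split was 14 and 15 with a common median, against 7.07% and 24.1% of all genes. It was 14 and 14 with a common sum, against 7.53% and 23.1%, and 22 and 7 with quantile normalisation, against 10.9% and 16.0%.

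In whole seeds most kinesins that were higher in the embryo proper had low levels. Of the 54 members higher in the embryo proper, the median was 2 FPKM in the whole seed and 13.5 in embryo proper, and 5 were listed at 0 in the whole seed. The 54 were picked by high embryo values, and whole seed values of all genes so picked are not given here for comparison. ATK5 copies BnaA09g19860D and BnaC09g21860D had 6 FPKM each in the whole seed, HIK copies had 1 FPKM each, and BnaC04g33580D was listed at 0. Against the mean of the 7 compartments, 7 members were higher in the whole seed and 5 lower, against 16.1% and 9.6% of all genes; the higher count was 12 with a common sum, against 27.2% of all genes, and quantile normalisation gave 6 higher and 8 lower, against 16.0% and 10.4%. Those on the higher side included ATK2, with 21 FPKM in BnaC01g19340D and 18 in BnaA01g16240D in the whole seed, the KAC1 copy BnaC03g04340D at 10, and the ATK3 copy BnaC09g53250D at 13, which had the largest difference, 1.82 log2. Of the 7, 4 were also among the 54 higher in the embryo proper, namely both ATK2 copies and the ATK3 copies BnaC09g53250D and BnaA10g28890D. Of the 79 members at 5 FPKM or more in a compartment, 13.9% were listed at 0 in the whole seed, against 18.1% of all such genes.

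**Figure D5:**
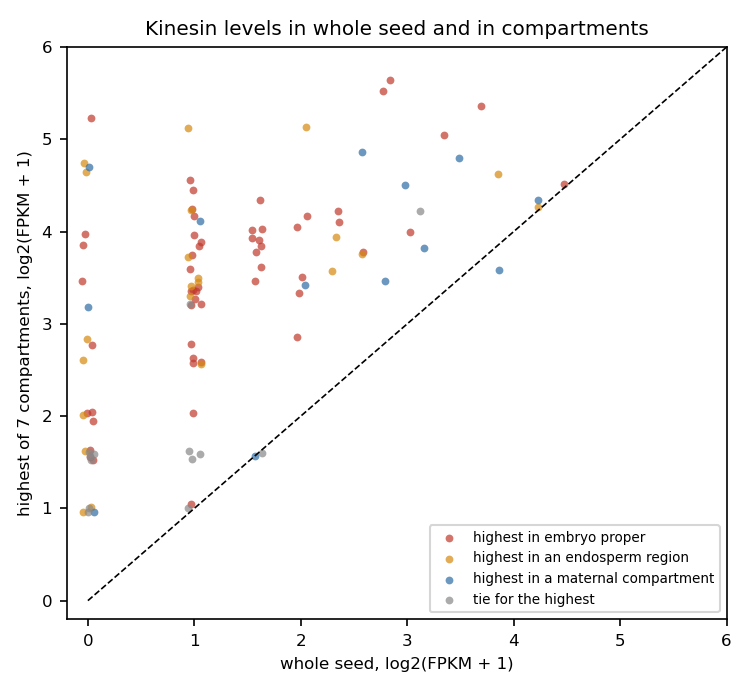
Level of each of 104 kinesin genes in the whole seed (horizontal axis) and in the compartment where it was highest (vertical axis), both as log2(FPKM + 1), coloured by that compartment; points are shifted slightly so that equal values can be seen, and the dashed line marks equal levels. In the whole seed, 28 genes lie at 0, and 1 gene is above its highest compartment.

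Among the A and C copy pairs, those that peaked together did so in the embryo proper. For 12 Arabidopsis loci the table held exactly 1 A and 1 C copy with kinesin annotation and both were members. Of these pairs 7 had the same highest compartment, in each case the embryo proper, where 56 of all 104 members were highest. The A minus C difference in mean log2 level was -1.32 for AT5G33300 (BnaA08g07300D and BnaC08g08140D) and -1.16 for KAC2, and within 1 for the other 10 pairs. POK1 had 2 FPKM in the A copy BnaA05g22780D and 9 in the C copy in the embryo proper. AT3G50240, a kinesin-4, had 15 FPKM in the A copy BnaAnng03740D and 2 in the C copy BnaC08g21620D in the embryo proper. How reads that match several copies were counted is not given in the sources used here, so levels of near-identical copies are uncertain.

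Some annotated copies look incomplete by length. HIK had 11 annotated copies, and the 7 at 0 were 180 to 339 bases long, against 2850 to 2943 bases for the 4 expressed ones. Of the 27 annotated genes at 0, 18 were shorter than 1000 bases, against 7 of the 104 members. All 5 copies of AT4G24170, a kinesin-7 gene, were at 0, with lengths between 324 and 2868 bases. The KAC1-like model BnaC06g25970D of 261 bases shared the inner seed coat peak of the longer KAC1 copies and differed elsewhere: it had 25 FPKM in the inner seed coat, 21 in peripheral endosperm, 12 in chalazal proliferating tissue, 10 in chalazal endosperm, 2 in outer seed coat and 0 in embryo proper and micropylar endosperm.

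The annotation also took in 5 genes that match none of the 60 Arabidopsis motor loci listed for this work. Those of AT5G33300, described as chromosome-associated and kinesin-related, were shared by the embryo proper and the peripheral and chalazal endosperm: BnaC08g08140D had 28 FPKM in the embryo proper, 34 in peripheral and 32 in chalazal endosperm, 9 in micropylar endosperm and 2 to 5 in maternal compartments. BnaA08g07300D had 14 FPKM in the embryo proper, 9 in peripheral and 10 in chalazal endosperm, and was listed at 0 and counted as lower in the micropylar endosperm, with a difference of -2.64 log2. Those of AT5G55520, which carry a kinesin-related domain, followed the division genes, with BnaA02g09000D at 21 FPKM in the embryo proper, 5 in peripheral endosperm, 1 in outer seed coat and 0 in the other 4.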

How the data were processed

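The deposited table was the only source of values. The authors deposited FPKM rounded to whole numbers, here treated as a score because the rounding leaves low values coarse, with 1 value per group, per the file headers; how libraries were combined is not stated. For the whole seed, whose heading lacks a unit, FPKM was assumed. Deposited gene length, in bases, was the other column used, and 1 further column matched no sample label and was not used. Per the submitters' processing notes, Trimmomatic 0.36, HISAT2 and Cufflinks were used; their roles and the genome build are not given in the sources used here. Per the labels, RNA was extracted with an Ambion reagent and libraries made with a NuGen kit.

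Annotations were decoded from UTF-7. Of 100447 genes with compartment values, 54278 with 1 FPKM or more in 2 of 8 columns were compared in 9 comparisons of mean log2(FPKM + 1). Arabidopsis loci are those of the authors' best protein match. Gene symbols and families were given to these loci from lists made for this work. Starts were moved by 1, because in 17707 genes end minus start gives the deposited length. The planned limma tests and omission of replicates could not be run on 1 column per group. The code was tested on simulated data. Alternatives were a pseudocount of 0.1, other filters on low values, quantile normalisation, a common median, a common sum without 367 ribosomal RNA and organelle genes, omission of a column, and other member rules. The members, lists and rules were chosen with earlier results of these data known. Named genes were copies of loci with a symbol at 5 FPKM or more, the 5 highest and 3 lowest differences per comparison, the 3 highest values per column, members 2-fold above each other compartment, the 5 copy pairs furthest apart, and the highest copy of each locus in the other lists. Computations ran in Python 3.11.15 (pandas 2.3.3, numpy 2.4.6), and figures in matplotlib 3.10.9.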

Additional observations from a re-analysis of the deposited data

How the results depend on the processing

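Of the counts recomputed under other settings, 183 stayed within 1.5 times and 40 did not. The embryo count of higher members was 28 of 47 when 5 FPKM in 2 columns were required, against 25.4% of all genes left. With quantile normalisation there were 8 lower in the whole seed, against 10.4% of all genes, and 10 with the micropylar endosperm as highest compartment. A common median gave 3 higher in the micropylar endosperm, against 10.4% of all genes, and 7 lower in the chalazal proliferating tissue, against 8.46%. It also gave 3, 18 and 5 members highest in the micropylar endosperm, peripheral endosperm and chalazal proliferating tissue. A common sum gave 3 lower in the embryo proper, against 15.3% of all genes, and 3 higher in the chalazal endosperm, against 5.32%. It gave 20 lower in the chalazal proliferating tissue, against 13.04%, and 12 higher in the whole seed, against 27.2%. In the outer seed coat 22 were higher and 3 lower with the common sum, against 24.7% and 6.60%. The chalazal endosperm and outer seed coat were then highest for 5 and 10 members. Without the micropylar endosperm, 14 were lower in the inner seed coat, against 6.74% of all genes, and 3 highest in the chalazal proliferating tissue. Without the embryo proper, chosen after seeing the data, 3, 7 and 9 were lower in the micropylar, peripheral and chalazal endosperm. The shares of all genes were 18.2%, 11.8% and 15.2%. On the filial side 10 were higher, against 11.2%. The micropylar endosperm, peripheral endosperm, chalazal proliferating tissue and outer seed coat were highest for 16, 20, 4 and 23. By construction, members highest in the embryo proper were counted elsewhere in this setting. All copies of the listed loci, 164 genes compared and 177 in all, made a list larger by construction. In the embryo proper 87 were higher and 8 lower, against 20.1% and 17.2% of all genes. In the micropylar endosperm 23 were higher and 15 lower, against 19.4% and 18.2%. In the chalazal proliferating tissue 26 were lower, against 11.2%, and in the inner seed coat 20, against 6.99%. In the outer seed coat 19 were higher, against 14.8%, and on the filial side 29, against 10.1%. In the whole seed 10 were lower, against 9.6%. The embryo proper, micropylar endosperm, chalazal endosperm, chalazal proliferating tissue and outer seed coat were highest for 88, 15, 17, 5 and 11. The filter of 5 FPKM can only lower the embryo count, with 47 members left of 99. For the other shifts the cause was not tested. Counts of highest compartments are given here without the share of all genes. The KAC2 copy BnaC03g48940D changed sign in the chalazal endosperm with a common sum, to -0.061 log2. No paired analysis was possible because the table holds 1 column per group. Rounding to whole numbers limits every value near 1 FPKM.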

Other observations

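The annotation rule missed copies of known kinesin loci that the table describes only as P-loop hydrolases. Of 98 such copies, 78 reached 1 FPKM in a compartment, and 70 could be compared. In the embryo proper 37 were higher and 3 lower, at a median difference of 1.34 log2, against 20.1% and 17.2% of all genes. PAKRP2, a kinesin-10 of the phragmoplast, had 37 FPKM in the embryo proper in BnaC04g28810D and 27 in BnaCnng17220D, with at most 5 elsewhere in the compartments. The spindle kinesin RSW7 had 38 FPKM in the embryo proper in BnaC04g39870D and 24 in BnaA04g16530D, with at most 7 elsewhere. In the inner seed coat 0 of the 70 were higher and 13 lower, against 15.4% and 6.99% of all genes.

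Outside the embryo, 1 copy of KIN13A, BnaC03g39700D, had 54 FPKM in the outer seed coat, 4 in inner seed coat and 0 in the other 5 compartments. FRA1, a kinesin-4 needed for wall deposition in Arabidopsis, was highest outside the embryo proper in BnaCnng41700D, with 11 FPKM in the micropylar endosperm, 10 in chalazal proliferating tissue, 9 in outer seed coat and 1 in embryo proper. All 4 listed copies of the kinesin-14 locus AT1G55550 were highest in the chalazal endosperm. The locus was chosen after its values were seen, and only copies at 1 FPKM or more in a compartment were listed. The listed copies had 66 FPKM in the chalazal endosperm in BnaC03g70640D, 21 in BnaC06g07280D, 13 in BnaA08g29230D and 5 in BnaA06g00310D. Each was at 0 in the embryo proper. BnaA08g29230D was at 0 in every other compartment. It was thus listed through the chalazal endosperm alone, and its peak there was fixed.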
